A study of Mus musculus with 3 samples.

Results

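The nuclei described here are the macrophage nuclei of the mouse aortic root, taken from single-nucleus gene expression of aortic valve structures at postnatal day 1. They were chosen by a rule on their own UMI counts. A nucleus was kept when it held at least 500 UMIs (unique molecular identifiers, each standing for 1 captured RNA molecule) and at most 5% of them from the 13 mitochondrial genes. A kept nucleus was a member when 3 or more of the 8 genes Csf1r, Mrc1, F13a1, Cd163, Adgre1, Cx3cr1, C1qa and Ptprc were detected, and when Ryr2, Ttn, Myh6 and Tnnt2, genes of the cardiomyocyte's contractile and calcium machinery, made up under 0.5% of its UMIs. This gave 279 macrophage nuclei, of which pool 1 held 155, pool 2 held 74 and pool 3 held 50, out of 14981 kept and 21140 deposited nuclei. The comparison population was the 14702 other kept nuclei of the same pools.

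The samples were 3 pools of a single group, each made from 22 to 24 aortic roots that had been frozen before nuclei were isolated. The strain label of all 3 pools is Scx<tm1.1(EGFP)Skom on a B6.Cg background, held as RBRC11098, an allele that places EGFP at Scx, the gene of the tendon transcription factor scleraxis, so no pool without this label serves as a control. RNA of single nuclei was read with the 10x Genomics Multiome kit, of which the expression data are used here. Each pool mixes many pups, so the spread between pools is a spread between pooled samples and not between animals. The main tests below pair the nuclei by pool, so their p-values rest on how a difference between sets of nuclei varies from pool to pool. In the fits with lymphatic and mesenchymal nuclei that variation is estimated over 4 classes together.

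Macrophages are phagocytes of the myeloid lineage that depend on signalling through the receptor Csf1r. In the heart, many descend from embryonic progenitors, settle before birth and renew in place, and these resident cells typically carry the scavenger and endocytic receptors Mrc1, Cd163, Lyve1, Timd4 and Folr2. Others arise from circulating monocytes, whose chemokine receptor Ccr2 marks recent entry, and antigen presentation through major histocompatibility complex (MHC) class II is a further axis on which heart macrophages differ. Around growing valves macrophages are known for clearing dying cells and for handling matrix.

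The 8 rule genes chose the nuclei, so their levels are given as a description, in counts per 1e6 UMIs of the nuclei summed (CPM). Mrc1, the mannose receptor, stood at 1253, 1394 and 1396 CPM in the macrophage nuclei of pools 1, 2 and 3 and at 9.16, 11.4 and 13.1 CPM in the other nuclei. F13a1, the coagulation factor XIII A chain found in many tissue macrophages, stood at 665, 582 and 795 CPM against 4.40, 3.92 and 8.59 CPM. Csf1r stood at 264, 326 and 209 CPM against 6.33, 6.30 and 4.27 CPM. The rule selected on these 3 genes, so the gap between the groups is a description and not a result. Cd163, the receptor for haemoglobin bound to haptoglobin, was the rule gene that varied between pools by more than 2-fold, at 60.8, 93.6 and 139.6 CPM. The other 4 rule genes stood within a narrower band across pools. Adgre1, which encodes the F4/80 antigen, was at 327, 387 and 319 CPM, Ptprc, the pan-leukocyte phosphatase CD45, at 304, 462 and 361 CPM, C1qa at 209, 246 and 173 CPM and the fractalkine receptor gene Cx3cr1 at 96.3, 126 and 115 CPM.

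Free RNA in the droplets can give a nucleus a UMI of a gene it does not use, so shares were also taken after each nucleus was thinned to 1000 UMIs. Thinning left out 9 macrophage and 899 other nuclei that were shallower. Mrc1 was then present in 67.8% of macrophage nuclei (median 4060 UMIs before thinning) and in 0.339% of 295 cardiomyocyte nuclei (median 5678 UMIs), which should lack it and served as the background. F13a1 was present in 37.8% against 0%, and Ptprc in 38.9% against 0%, where 0 of 295 nuclei allows a share of up to 1.02% (3 nuclei of the total, a limit on nuclei with a UMI and not on nuclei expressing the gene). All 3 are rule genes whose detection chose the nuclei, so these shares are a description and not a test.

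Among nuclei under the cardiomyocyte limit, 118 had 2 rule genes and fell just outside the rule, 49 had 3 and fell just inside, and 230 had 4 or more, with 9 nuclei holding all 8. Just inside the threshold, the summed level of 27 macrophage identity genes that the rule did not use was 1076, 2875 and 6911 CPM in pools 1, 2 and 3. Just outside it, the sum was 560.1, 2890.4 and 1366 CPM, and with 4 or more rule genes it was 4585, 6550.0 and 3582 CPM. The nuclei at the edge thus overlapped on this measure in pool 2. The cardiomyocyte limit set aside a further 49 nuclei with 3 or more rule genes, 14, 12 and 23 in pools 1, 2 and 3, and these were deep, with a median of 23211 UMIs.

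Some macrophage nuclei stood apart by depth. Their UMI totals ran from 531 to 102223, with a median of 3939 against 4090.5 in the other kept nuclei. There were 38 above the 95th percentile of UMIs of their pool, 26, 6 and 6 in pools 1, 2 and 3, and they held 49.8% of all macrophage UMIs. In these 38 nuclei the macrophage identity genes summed to 1416, 856.2 and 1035 CPM, against 6372, 8640.2 and 7215 CPM in the 241 nuclei within the limit and 192.7, 202.8 and 185.6 CPM in nuclei with no rule gene. Mesothelial markers went the other way, summing to 737.1, 1053 and 26.8 CPM above the limit and 63.1, 17.3 and 6.99 CPM within it. The same holds for Msln, the mesothelial surface protein mesothelin: 294 of its 307 UMIs in macrophage nuclei lay above the limit, 100 of them in 1 nucleus. No doublet caller was run. The part of droplets holding more than 1 nucleus in these levels was not tested. Values without these 38 nuclei are given for many lists and for some genes, but not for every call that they change. The pools shared 99, 59 and 44 barcodes in their 3 pairings, and 0 of these were barcodes of macrophage nuclei.

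**Figure D1:**
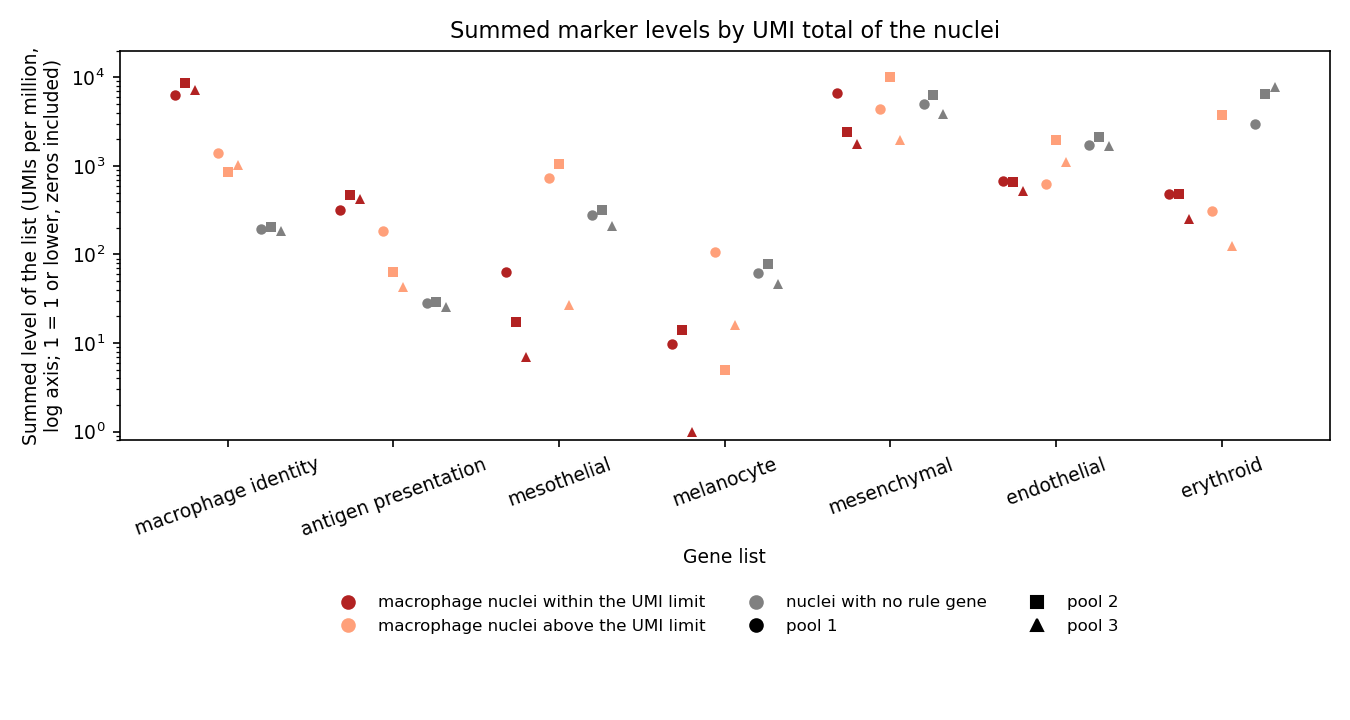
Summed levels of 7 gene lists (vertical axis, CPM on a log axis) in macrophage nuclei within the UMI limit, macrophage nuclei above it and nuclei with no rule gene; each symbol is 1 pool. The identity genes sit between 6372 and 8640.2 within the limit and between 856.2 and 1416 above it, while mesothelial markers are higher above the limit in 3 of 3 pools.

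Macrophage nuclei made up 2.05% of kept nuclei in pool 1 (Wilson 95% interval 1.76 to 2.40), 2.14% in pool 2 (1.71 to 2.67) and 1.26% in pool 3 (0.959 to 1.66). The mean was 1.82% ± 0.482 (SD, n = 3 pools). The interval of pool 3 does not overlap that of pool 1 or that of pool 2, and those of pools 1 and 2 overlap. With 1 group of samples no contrast of this share exists. The share depends on depth, since a nucleus with more UMIs has more chances to show 3 genes: it was 1.05% when each nucleus was thinned to 1000 UMIs before the rule was applied. Without the macrophage nuclei that hold 2 or more markers of another structural type it was 0.527%. Intervals here cover counting error only.

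To ask what else sets these nuclei apart, raw counts were summed per pool over macrophage nuclei and over other kept nuclei and tested with edgeR. The 12 genes of the rule were left out, but every tested gene was read in the same nuclei that the rule picked. Of 17165 genes tested, 9.69% (1663 genes) were higher and 8.94% (1534 genes) were lower in macrophage nuclei at an adjusted p under 0.05. Without the 207 macrophage nuclei that hold 2 or more markers of another structural type, 1053 genes were higher and 2628 lower of 16419 tested, and 2120 of these calls were shared. Without the 38 deep nuclei 11.2% were higher and 13.1% lower of 16944 tested, and the median log2 difference over all genes moved from -0.07 to -0.18. With every nucleus thinned to 1000 UMIs 20.1% were called, 8.51% higher and 11.6% lower, of 12264 tested, with a median of -0.26.

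The 15 genes with the highest fold included immune receptors, enzymes and regulators, and 3 genes with model or clone names. Ms4a14 and Ms4a4a belong to a family of small membrane-spanning proteins, many of them found on myeloid cells. Ms4a4a stood at 178, 157 and 203 CPM in the 3 pools against 1.25, 1.29 and 2.01 CPM in the other nuclei, a log2 difference of 6.83 ± 0.20 (SE, adjusted p = 2.13e-38), and Ms4a14 at 69.4, 91.6 and 75.9 CPM against 0.489, 0.826 and 0.566 CPM. Aoah, the enzyme that removes fatty acids from bacterial lipopolysaccharide, stood at 349, 395 and 346 CPM against 2.79, 3.72 and 2.98 CPM, a log2 difference of 6.75 ± 0.17 (adjusted p = 5.81e-42). Every macrophage sum lay above every other sum for these 3 genes.

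Tfec, a transcription factor of the Mitf family found in macrophages, rose by a log2 difference of 6.77 ± 0.33, from 0.635, 0.722 and 0.823 CPM in the other nuclei to 69.4, 91.6 and 103 CPM. Tlr7, the endosomal sensor of single-stranded RNA, stood at 49.7, 89.5 and 45.5 CPM against 0.415, 0.671 and 0.720 CPM. Msr1, a scavenger receptor for modified lipoproteins, stood at 151, 279 and 200.3 CPM against 1.61, 2.43 and 2.98 CPM, and Cd86, a co-stimulatory ligand for T cells, at 119.9, 189 and 124 CPM against 1.10, 1.60 and 2.57 CPM. Fcrls, a receptor-like gene known from microglia and other macrophages, stood at 110.5, 153 and 84.96 CPM against 1.59, 1.29 and 0.926 CPM. The adjusted p of these 5 genes lay between 1.46e-38 for Msr1 and 1.72e-22 for Tlr7. At 1000 UMIs per nucleus, Aoah was present in 35.6% of macrophage nuclei, 0.225% of other nuclei and 0.339% of cardiomyocyte nuclei, and Cd86 in 21.9%, 0.101% and 0%. The same group held Ms4a6b, Ms4a6d, Ifi207 and Lilrb4a, whose log2 differences were 6.57, 6.46, 6.76 and 6.45. These 4 genes have close copies in the genome, so the split of reads between copies is uncertain. It also held 3 genes known by clone or model names, Gm40645, F630028O10Rik and E330020D12Rik, at 6.73, 6.48 and 6.36.

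Promoter sequences of these genes are shown because they rise together in the macrophage nuclei and because the letters GGAAGT are a core bound by the ETS family of factors, to which the myeloid factor PU.1, the product of Spi1, belongs. The search covered the 250 bases before the annotated start, on both strands (GGAAGT or ACTTCC), in RefSeq sequences of GRCm38.p6; the counts themselves were made on another build, so these positions belong to GRCm38.p6 alone. The 15 genes with the highest fold matched 10 promoters, and 6 of these 10 held the letters. Of 32851 promoters of 27025 genes in the table, 19.7% did, and of 24 promoters of the 21 matched macrophage identity genes 29.2% did. The longer run GAGGAAGT, which contains the shorter one, was in 0 of the 10 and in 2.44% of all. Of the promoters with a match, 3 are printed 5′ to 3′ on the gene's strand with the match in capitals, on chromosome 6 from 16898442 to 16898691 (minus strand) for Tfec, chromosome 13 from 20793863 to 20794112 (plus strand) for Aoah and chromosome 3 from 87263525 to 87263774 (minus strand) for Fcrls.
Tfec: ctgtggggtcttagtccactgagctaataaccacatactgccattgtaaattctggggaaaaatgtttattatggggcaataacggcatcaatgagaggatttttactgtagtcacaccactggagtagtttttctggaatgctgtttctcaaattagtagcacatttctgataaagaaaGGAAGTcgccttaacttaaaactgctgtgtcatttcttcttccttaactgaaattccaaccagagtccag
Aoah: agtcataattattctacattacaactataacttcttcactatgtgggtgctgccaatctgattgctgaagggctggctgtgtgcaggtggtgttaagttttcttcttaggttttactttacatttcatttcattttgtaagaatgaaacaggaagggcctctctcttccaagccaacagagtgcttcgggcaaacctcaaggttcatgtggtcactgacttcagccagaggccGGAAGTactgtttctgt
Fcrls: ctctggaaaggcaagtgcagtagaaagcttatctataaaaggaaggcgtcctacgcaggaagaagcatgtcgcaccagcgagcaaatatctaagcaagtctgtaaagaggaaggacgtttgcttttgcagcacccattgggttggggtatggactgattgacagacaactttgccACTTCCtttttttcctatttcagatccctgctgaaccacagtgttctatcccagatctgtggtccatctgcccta
In each the match lies in the 100 bases next to the start, at -70 in Tfec, -17 in Aoah and -75 in Fcrls, counted from the start to the first letter of the match. A match of 6 letters describes the sequence and does not show that a factor binds there.

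The genes lowest in macrophage nuclei included cardiac genes, which the cardiomyocyte limit in the rule itself moves. Mypn, a sarcomere protein, stood at 1.58, 0 and 3.03 CPM against 38.5, 55.7 and 61.4 CPM in the other nuclei, and Rbm20, a splicing factor of titin, at 31.6, 32.6 and 169.9 CPM against 901, 1278 and 1541 CPM. Their log2 differences were -5.10 and -4.43, and with no limit on cardiomyocyte UMIs neither passed (Mypn -0.78, adjusted p = 0.269, and Rbm20 -1.24, adjusted p = 0.0535). Under that alternative the number of genes called lower was 98, and the number called higher was 658, and this limit also removes nuclei of very high UMI totals.

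**Figure D2:**
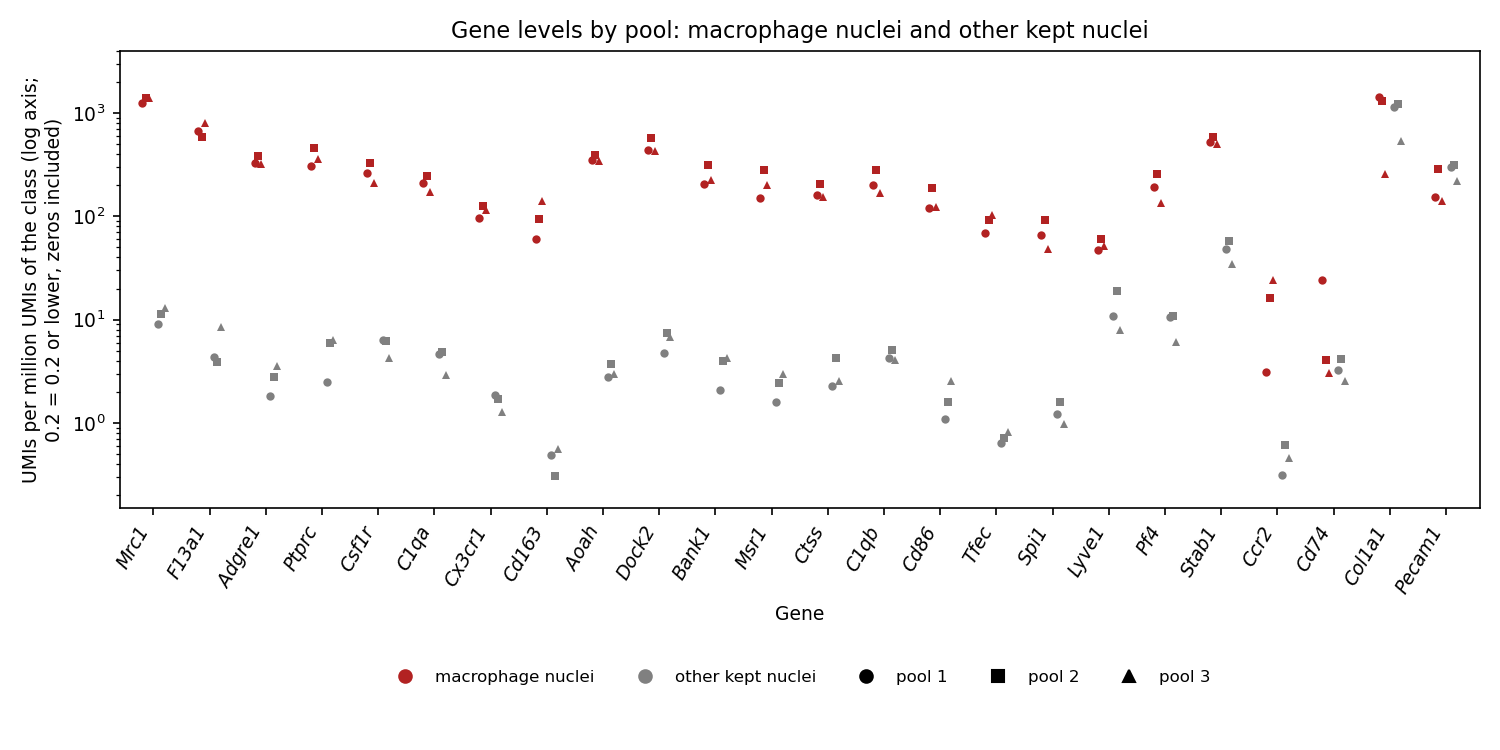
Levels of 24 genes (vertical axis, CPM on a log axis) in macrophage nuclei and in other kept nuclei, with 1 symbol per pool. The 8 rule genes stand first and are a description; Aoah, Dock2, Msr1 and Tfec lie far above the other nuclei in 3 of 3 pools, Lyve1 is higher by less, and Col1a1 and Pecam1 overlap or lie below.

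Genes of macrophage identity that were not in the rule were higher throughout. Of 27 listed genes 26 were tested, and 26 of 26 were higher with a median log2 difference of 4.76, beside -0.07 over all genes. The list was drawn up for macrophages, so its direction is not independent of the choice of nuclei. Dock2, a Rac activator of moving leukocytes, stood at 439, 569.8 and 425 CPM against 4.79, 7.38 and 6.74 CPM, a log2 difference of 6.16 ± 0.16 (adjusted p = 8.09e-41). Fyb, an adaptor of immune receptor signalling, stood at 383, 543 and 328 CPM against 8.43, 6.50 and 7.46 CPM. Ctss, the lysosomal protease cathepsin S, stood at 162, 203 and 155 CPM against 2.30, 4.28 and 2.57 CPM. These 3 genes were higher in 3 of 3 pools.

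The receptor-proximal signalling genes were part of this rise. Tyrobp, the adaptor DAP12 that pairs with Trem2, was higher by 4.57, Trem2 by 4.60 and Fcer1g, the shared Fc receptor chain, by 4.32 on the log2 scale. The kinase Syk, which acts below these adaptors, showed the lowest difference of the list at 2.52 ± 0.16, with 108, 155 and 139.6 CPM in macrophage nuclei, 18.03, 21.9 and 25.1 CPM in other nuclei and a mean of 58.6 CPM in the cardiomyocyte nuclei. Sirpa, the receptor for the "do not eat me" ligand Cd47, was higher by 3.46. Lyz2, lysozyme 2, stood at 38.7, 83.4 and 15.2 CPM and was highest in pool 2 and lowest in pool 3, with a log2 difference of 4.07. Cd14 had too few UMIs to be tested, 10, 5 and 0 in the 3 pools.

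Of 19 transcription factors of the myeloid lineage 18 were tested, and 13 were higher and 0 lower, with a median of 1.66. Without the deep nuclei 15 were higher and 1, Klf4, lower. Spi1, the factor PU.1 named above, stood at 66.3, 91.6 and 48.5 CPM against 1.22, 1.60 and 0.977 CPM, a log2 difference of 5.64 ± 0.33 (adjusted p = 1.65e-22). Ikzf1, the haematopoietic factor Ikaros, was higher by 5.57, Irf8 by 3.70 and Runx1 by 3.55. Maf, a factor of macrophage differentiation, stood at 309, 267 and 234 CPM against 37.4, 30.3 and 24.9 CPM and was higher by 3.02. Mef2c was higher by 1.14, while Mef2a stood at 888, 963 and 1035 CPM against 771, 809 and 921 CPM (log2 difference 0.09, adjusted p = 0.756). Mitf stood at 229.6, 281 and 319 CPM against 156, 219.9 and 247 CPM and did not pass (log2 difference 0.32, adjusted p = 0.0977); without the deep nuclei it was higher by 0.95 (adjusted p = 2.82e-07, range over its alternatives 6.87e-09 to 0.627).

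Most genes of resident heart macrophages were higher than in the other nuclei. Of 18 listed genes 15 were tested, 14 were higher and 0 lower, and the median was 2.23. Lyve1, a hyaluronan receptor, stood at 47.3, 61.05 and 51.6 CPM against 10.97, 19.1 and 7.97 CPM, a log2 difference of 1.98 ± 0.24 (adjusted p = 3.90e-10). The 3 macrophage sums lay above each sum of the other nuclei. Stab1, a scavenger receptor, stood at 524, 580.0 and 498 CPM against 48.3, 57.8 and 34.9 CPM, and Pf4, a chemokine of platelets and resident macrophages, at 192, 254 and 134 CPM against 10.7, 10.8 and 6.07 CPM. Their differences were 3.41 ± 0.14 and 4.26 ± 0.16.

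The rarer resident genes rest on few UMIs. Timd4, a receptor for phosphatidylserine on dying cells, had 4, 8 and 3 UMIs in the macrophage nuclei of pools 1, 2 and 3, and these came from 10 nuclei; its log2 difference was 4.67 ± 0.73 (adjusted p = 4.35e-07). Folr2, a folate receptor, had 16, 4 and 1 UMIs from 18 nuclei, a difference of 2.23 ± 0.54. It did not pass without pool 1 (1.55, adjusted p = 0.459), without nuclei holding markers of other cell types (1.92, adjusted p = 0.446) or with no limit on cardiomyocyte UMIs (1.48, adjusted p = 0.22). Clec10a, a lectin, had 26, 4 and 1 UMIs and a difference of 6.65. Vsig4, a complement receptor, had 2, 3 and 1 UMIs. Gas6 and Igf1 are the secreted growth factors of this list. Gas6, the bridge between dying cells and receptors of the Mertk family, stood at 147, 155 and 121 CPM against 87.8, 92.4 and 60.8 CPM and was higher by 0.70 ± 0.15, but did not pass with no limit on cardiomyocyte UMIs (0.46, adjusted p = 0.0976). Igf1 stood at 289.6, 458 and 294 CPM against 263, 315 and 263 CPM and did not pass (log2 difference 0.17, adjusted p = 0.482).

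Monocyte genes were mixed. Of 16 listed 10 were tested, 5 were higher and 3 lower, with a median of 1.57. With thinned nuclei 3 of 8 were higher and 2 lower, with a median of -0.47 beside -0.26 over all genes. Ccr2 had 4, 8 and 8 UMIs in 9 macrophage nuclei, 3 in each pool, and 34 in the other kept nuclei, a log2 difference of 4.48 ± 0.63 (adjusted p = 3.11e-08). Itgal, an integrin of circulating leukocytes, stood at 30.8, 42.7 and 33.4 CPM against 0.660, 0.722 and 0.720 CPM, and Cd52, a leukocyte glycoprotein, at 23.7, 26.5 and 18.2 CPM against 1.27, 2.43 and 1.49 CPM. The inflammatory monocyte gene Ly6c2 had 1 UMI and Il1b had 3 in the macrophage nuclei of the 3 pools together. The members that fell are matrix and vessel genes in this tissue. Vcan, the proteoglycan versican, stood at 324, 370.4 and 440.0 CPM against 682, 707 and 676 CPM and fell by 1.00 on the log2 scale. Ace, the angiotensin-converting enzyme, and Fn1, fibronectin, had differences of -0.61 and -0.38. Fn1 had an adjusted p of 0.0495, with a range over its alternatives of 1.02e-30 to 0.566. Without pool 1 neither Ace (-0.58, adjusted p = 0.297) nor Fn1 (-0.25, adjusted p = 0.566) passed. Without the deep nuclei Ace no longer passed (-0.53, adjusted p = 0.161, range over its alternatives 6.08e-05 to 0.297).

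**Figure D3:**
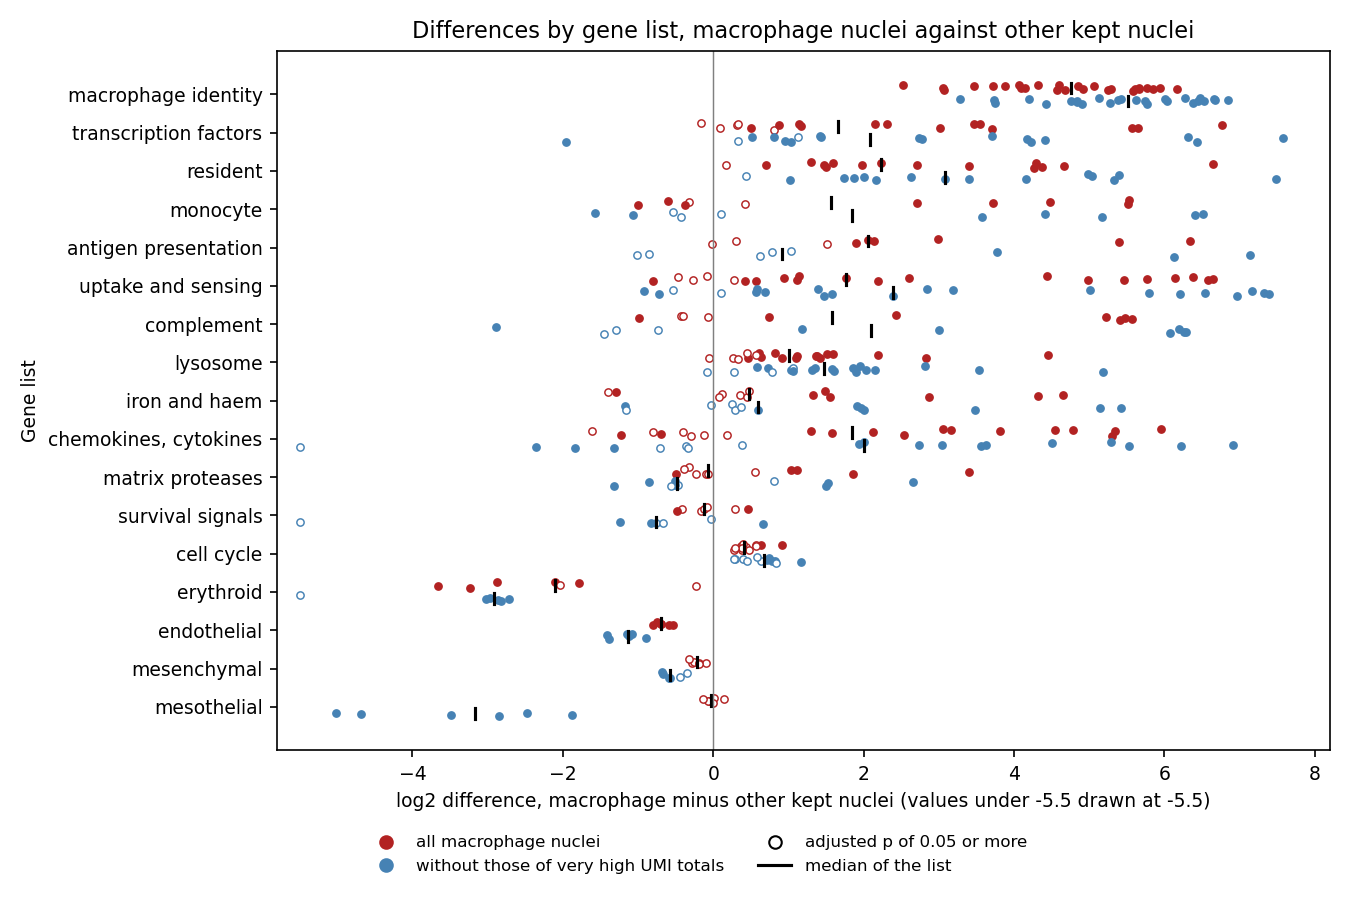
Log2 difference between macrophage and other kept nuclei (horizontal axis) for every tested gene of 17 lists, with all macrophage nuclei in red and without the 38 deep ones in blue; open points did not pass and black bars are list medians. The identity median is 4.76 with and 5.52 without the deep nuclei, while the mesothelial median goes from -0.03 to -3.17.

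Genes of uptake and sensing held many that rose. Of 22 listed, 21 were tested, 16 were higher and 1 lower, and the median was 1.77. Without the deep nuclei 17 were higher and 2 lower. Mertk, the receptor kinase by which macrophages engulf dying cells, stood at 342, 433 and 407 CPM against 122, 92.4 and 104 CPM, a log2 difference of 1.77 ± 0.14 (adjusted p = 2.97e-17). Its relative Axl had 103, 109.9 and 84.96 CPM against 77.6, 64.04 and 63.02 CPM, a log2 difference of 0.43 (adjusted p = 0.0454, range over its alternatives 0.0302 to 0.989, and lost without any 1 of the pools), and its ligand Pros1 60.8, 89.5 and 63.7 CPM against 54.4, 56.04 and 49.8 CPM, which did not pass (0.27, adjusted p = 0.328). The Fc receptors Fcgr1 and Fcgr2b, which bind antibody, were higher by 6.14 and 6.65. Abca1, the exporter of cholesterol taken up with cargo, stood at 376, 490.4 and 671 CPM against 84.9, 111 and 108 CPM and was higher by 2.19. Cd36, a fatty acid carrier that macrophages share with muscle and capillary cells, was the one called lower with all macrophage nuclei. It stood at 155, 281 and 252 CPM against 272, 368 and 461 CPM, with a mean of 1242 CPM in the cardiomyocyte nuclei that the rule keeps out. Its difference of -0.80 did not pass with no limit on cardiomyocyte UMIs (-0.20, adjusted p = 0.53), with thinned nuclei (-0.36, adjusted p = 0.332), without nuclei holding other markers (-0.42, adjusted p = 0.235) or with no block (-0.83, adjusted p = 0.0756).

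Most lysosomal genes rose. Of 20 genes tested 15 were higher and 0 lower, with a median of 1.01. Without the deep nuclei 16 were higher and 0 lower. Ctsc, the protease that activates other granule proteases, stood at 337, 356 and 322 CPM against 14.1, 13.6 and 15.2 CPM, a difference of 4.45 ± 0.15 (adjusted p = 8.69e-36). Lgmn, asparaginyl endopeptidase, was higher by 2.83, Ctsb, cathepsin B, by 2.19 and Hexa, a subunit of hexosaminidase, by 1.51. Among those that did not pass, the cholesterol transporter Npc1 stood at 68.6, 69.2 and 106 CPM against 61.5, 59.2 and 58.8 CPM (0.26, adjusted p = 0.337), and Ctsl, cathepsin L, at 158, 193 and 54.6 CPM against 148, 162 and 77.3 CPM (-0.06, adjusted p = 0.872).

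Of 13 tested genes for iron and haem 6 were higher and 1 lower, with a median of 0.47. Without the deep nuclei 7 were higher and 1 lower. Slc40a1, ferroportin, the exporter by which macrophages return iron to the blood, stood at 142, 214 and 149 CPM against 5.89, 9.44 and 8.54 CPM, a log2 difference of 4.32 ± 0.17 (adjusted p = 1.98e-31). Slc11a1, the metal transporter of the phagosome, was higher by 4.65. Hmox1, which breaks down haem, stood at 16.6, 22.4 and 54.6 CPM against 3.59, 3.72 and 2.67 CPM and was highest in pool 3, where 18 UMIs came from 5 nuclei. The ferritin genes Fth1 and Ftl1 had differences of 0.07 (adjusted p = 0.822) and 0.36 (adjusted p = 0.0596) and did not pass. Tfrc, the transferrin receptor of cells that take iron in, stood at 14.99, 22.4 and 24.3 CPM against 39.2, 49.4 and 44.7 CPM and fell by 1.30 on the log2 scale (adjusted p = 1.54e-05, range over its alternatives 5.47e-07 to 0.252). Haemoglobin transcripts were lower too: Hbb-bs stood at 166, 421 and 78.9 CPM against 850.0, 1878 and 1737 CPM, which did not pass against nuclei matched on UMI total (-1.08, adjusted p = 0.239).

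Of 10 complement genes tested 6 were higher and 1 lower, with a median of 1.58. C1qb and C1qc, which with the rule gene C1qa form the recognition molecule C1q, stood at 199.6, 279 and 169.9 CPM and at 190.1, 224 and 109 CPM, against 4.30, 5.06 and 4.06 CPM and 4.25, 3.66 and 3.40 CPM in the other nuclei. Their log2 differences were 5.47 ± 0.17 and 5.41 ± 0.19. The receptors for the fragments C3a and C5a, C3ar1 and C5ar1, were higher by 5.57 and 5.22. Cfp, properdin, which stabilises the alternative pathway, was higher by 2.43. C3, the central component itself, stood at 149.9, 97.7 and 6.07 CPM against 208, 197 and 72.5 CPM and fell by 0.99 on the log2 scale, and 211 of its 240 UMIs in macrophage nuclei lay in the deep ones; without them its difference was -2.89 (adjusted p = 1.26e-24, range over its alternatives 1.26e-24 to 0.436).

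Of 20 chemokine and cytokine genes tested 12 were higher and 2 lower, with a median of 1.85. Without the deep nuclei 11 of 19 were higher and 3 lower. Ccl12, a ligand of Ccr2, had 45, 13 and 1 UMIs in pools 1, 2 and 3 and a log2 difference of 5.35 ± 0.51. Cxcl16, a scavenger receptor and chemokine in one, stood at 41.8, 44.8 and 30.3 CPM against 6.01, 8.72 and 4.42 CPM (2.54), and Il18, an inflammasome cytokine, at 49.7, 63.1 and 54.6 CPM against 7.89, 5.99 and 4.01 CPM (3.05). Tgfb1, which acts on neighbouring mesenchyme, was higher by 1.57 ± 0.17, and Pdgfb, a growth factor for mural cells, by 1.30, which did not pass without pool 1 (adjusted p = 0.0617). The 2 called lower with all macrophage nuclei were vascular growth factors. Vegfa stood at 31.6, 38.7 and 51.6 CPM against 83.99, 90.9 and 70.4 CPM and Vegfc at 98.6, 83.4 and 127 CPM against 137, 158 and 172 CPM, differences of -1.23 and -0.70. With no limit on cardiomyocyte UMIs neither passed (Vegfa -0.42, adjusted p = 0.496, and Vegfc -0.32, adjusted p = 0.373), nor did Vegfc against nuclei matched on UMI total (-0.58, adjusted p = 0.0623). Of the acute mediators Il6 had 1 UMI, Cxcl2 3 and Il10 0 in macrophage nuclei, while Tnf had 14 against 7 in the other kept nuclei (log2 difference 5.95 ± 0.84, adjusted p = 3.50e-08).

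The calls of MHC class II genes rest on few nuclei. Of 12 listed genes for antigen presentation and co-stimulation 9 were tested, 6 were higher and 0 lower, with a median of 2.06; without the deep nuclei 3 of 8 were higher, with a median of 0.91. Those 3 were the co-stimulatory genes Cd86, Cd80 and Cd83, at 7.14, 3.77 and 6.13. Cd74, the invariant chain that loads class II molecules, had 31, 2 and 1 UMIs, and 26 of the 34 lay in deep nuclei, 23 of them in 1 nucleus. Its log2 difference was 1.90 ± 0.48 (adjusted p = 0.00186) with all macrophage nuclei and 1.04 (adjusted p = 0.334, range over its alternatives 2.72e-05 to 0.986) within the limit. H2-Ab1 had 22, 3 and 3 UMIs and went from 2.14 (adjusted p = 4.92e-04) to 0.78 (adjusted p = 0.603, range over its alternatives 1.10e-04 to 0.603). H2-Aa, with 10, 4 and 0 UMIs, was no longer tested within the limit.

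Of 11 tested matrix proteases and their inhibitors 4 were higher and 1 lower, with a median of -0.07 beside -0.07 over all genes. Without the deep nuclei 3 of 10 were higher and 4 lower, with a median of -0.49 beside -0.18, and with thinned nuclei 2 of 8 were higher and 4 lower, with a median of -0.83 beside -0.26. Adam17, the protease that sheds membrane proteins, stood at 130.2, 159 and 139.6 CPM against 59.7, 60.2 and 63.2 CPM and was higher by 1.11 ± 0.15. Mmp2 and Mmp14, collagenolytic enzymes of many mesenchymal cells, had differences of -0.32 (adjusted p = 0.175) and -0.10 (adjusted p = 0.761). The gene called lower with all nuclei was Timp3, a protease inhibitor held in matrix, which fell by 0.50 on the log2 scale (adjusted p = 0.0257, range over its alternatives 5.24e-07 to 0.526), and without pool 1 it did not pass (adjusted p = 0.508). Among genes of signals for macrophage survival or restraint, 7 were tested, 1 was higher and 1 lower, with a median of -0.12 beside -0.07 over all genes. Over all genes 9.69% were higher and 8.94% lower, so these counts are no result about the list. Without the deep nuclei 1 was higher and 2 lower. The ligands of Csf1r did not pass in either direction against the other kept nuclei: Csf1 stood at 27.6, 28.5 and 24.3 CPM against 31.7, 27.8 and 22.02 CPM (-0.16, adjusted p = 0.742), and Il34 at 3.16, 2.03 and 3.03 CPM against 3.64, 3.41 and 3.60 CPM (-0.41, adjusted p = 0.786). Without nuclei holding other markers Csf1 was at -2.96 (adjusted p = 0.0532). Against mesenchymal nuclei 5 genes of the survival list were tested, and 0 were higher and 4 lower, with a median of -0.86.

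Of genes that mark macrophages of other organs, 13 were listed and 6 tested, with 1 higher and 1 lower and a median of 0.51. Over all genes 9.69% were higher and 8.94% lower, with a median of -0.07, so these counts are no result about the list. P2ry12, a nucleotide receptor best known from microglia, stood at 147, 169 and 155 CPM against 3.74, 3.30 and 4.94 CPM, a log2 difference of 5.20 ± 0.19 (adjusted p = 1.25e-33). The microglial genes Tmem119 and Sall1 stood at 17.4, 18.3 and 3.03 CPM and 6.31, 26.5 and 6.07 CPM, with differences of 0.75 (adjusted p = 0.198) and -0.18 (adjusted p = 0.84). Gata6, a factor of peritoneal macrophages that the heart also uses, fell by 0.77 on the log2 scale, but did not pass with no limit on cardiomyocyte UMIs (-0.41, adjusted p = 0.271).

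Markers of T and natural killer cells were at or near 0, while single genes of the B cell, neutrophil, dendritic cell and mast cell lists were higher. The 8 T cell markers summed to 4.73, 4.07 and 0 CPM in pools 1, 2 and 3, and Cd3e, Cd3d, Cd3g and Trbc2 were at 0. The 6 natural killer cell markers held 1 UMI. In the B cell list Cd79a was at 0, and Bank1, a signalling adaptor named for B cells, rose: it stood at 205, 311 and 225 CPM against 2.08, 3.97 and 4.27 CPM, a log2 difference of 6.13 ± 0.18 (adjusted p = 1.46e-38). At 1000 UMIs Bank1 was present in 28.1% of macrophage nuclei and 0% of cardiomyocyte nuclei. In the neutrophil list the receptor gene Csf3r, which macrophages can also express, stood at 22.1, 46.8 and 30.3 CPM and was higher by 5.31, while Elane and Ltf were at 0. S100a8, an alarmin, had 20 UMIs and was higher by 2.00 (adjusted p = 0.00509), but did not pass without the deep nuclei (1.65, adjusted p = 0.106, range over its alternatives 3.38e-04 to 0.805). The 8 dendritic cell markers summed to 74.2, 59.01 and 87.99 CPM in macrophage nuclei and 64.3, 60.1 and 64.9 CPM in the others, and 2 of 4 tested were higher. These were Itgax, an integrin chain that macrophages also use, with 8 UMIs (5.14 ± 1.01, adjusted p = 4.63e-05), and the transcription factor Batf3, with 17 UMIs (2.92 ± 0.62, adjusted p = 1.81e-04, range over its alternatives 6.85e-06 to 0.277). Xcr1 and Cd209a were at 0, and Flt3 and Clec9a had 1 UMI each. The 7 mast cell markers summed to 33.9, 38.7 and 24.3 CPM against 25.97, 30.2 and 17.4 CPM, and 1 of 6 tested was higher, Cma1, a chymase, with 18 UMIs (2.06 ± 0.57, adjusted p = 0.00453, range over its alternatives 0.00247 to 0.242).

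Mesenchymal and mesothelial markers did not pass the test between all macrophage nuclei and the others, while endothelial and cardiomyocyte markers were lower. Of 6 mesenchymal markers 0 were called in either direction with edgeR, while 1 was lower at an unadjusted p under 0.05 and 0 were called with DESeq2, and they summed to 5543, 5645 and 1875 CPM in macrophage nuclei against 4845, 5193 and 2791 CPM in the others. Without the deep nuclei 4 of the 6 were lower. With thinned nuclei 2 of the 6 were lower with edgeR (median -0.71), and all 6 were at an unadjusted p under 0.05. Of 279 macrophage nuclei 207 held 2 or more detected markers of another structural type, and 202 held 2 or more mesenchymal ones. The mesenchymal share was 72.4%, against 79.1% of other kept nuclei. A nucleus could hold markers of several types: 136 held 2 or more cardiomyocyte, 111 smooth muscle, 68 endothelial and 52 pericyte markers. All 6 endothelial markers were lower, with a median of -0.69, and all 6 cardiomyocyte markers, with a median of -0.91, where the rule itself sets a limit. Of 6 smooth muscle markers 1 was lower, with a median of -0.24, and 4 were without the deep nuclei (-0.61) and 5 with thinned nuclei (-1.49). Of 6 cardiomyocyte markers 5 were lower under either of these alternatives. For the 6 mesothelial markers 0 were called with all macrophage nuclei by edgeR or DESeq2, 0 at an unadjusted p under 0.05, and all 6 were lower without the deep ones, with medians of -0.03 and -3.17, while with thinned nuclei 0 were called (median -0.40, and 0 passed at an unadjusted p under 0.05). The part of free RNA and of mixed droplets in these levels was not tested.

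Lymphatic endothelium is the class of the root that shares Lyve1, Stab1 and Maf with macrophages, so the 2 were compared directly. The comparison class was 59 nuclei, 22, 19 and 18 in pools 1, 2 and 3, with 3 or more of Prox1, Flt4, Mmrn1, Reln, Ccl21a and Tbx1 and outside the macrophage rule. Of 12730 genes tested 12.6% were higher in macrophages and 8.27% lower, and without the deep nuclei 13.7% and 9.84%. Without macrophage nuclei holding other markers 1091 were higher and 1685 lower of 11558 tested. Markers of other structural types were also higher in macrophage than in lymphatic nuclei: 5 of 6 smooth muscle, 5 of 6 mesothelial and 3 of 4 pericyte markers. None of these was lower. Without the deep nuclei 5 of 6, 0 of 6 and 3 of 3 were higher. The part of free RNA and of mixed droplets in this rise was not tested. The lymphatic sum of pool 3 stood apart: erythroid markers made up 50160.4 CPM of it, against 155 and 159 CPM in pools 1 and 2, and 3637 of their 3644 UMIs lay in 1 nucleus. Without pool 3 the number of genes called was 2172, against 2656. The part of that nucleus in the results of this comparison was not tested on its own. Lyve1 was lower in macrophages, at 47.3, 61.05 and 51.6 CPM against 601, 467 and 496 CPM, a log2 difference of -3.33 ± 0.27 (adjusted p = 2.02e-09). Stab1 stood at 524, 580.0 and 498 CPM against 452, 556 and 358 CPM, and the groups overlapped (0.27, adjusted p = 0.376). Maf stood at 309, 267 and 234 CPM against 77.7, 212 and 248 CPM (0.77, adjusted p = 0.0772), and without the deep nuclei both passed as higher, at 1.01 and 1.44. Mrc1, a rule gene, is described only: it stood at 14.1, 44.1 and 13.8 CPM in the lymphatic nuclei, from 8 UMIs in all.

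Of 11 tested resident genes 3 were higher in macrophages and 1 lower, with a median of 0.55, and of 20 lysosomal genes 6 were higher and 0 lower, with a median of 0.35, beside 0.24 over all genes. Without the deep nuclei 6 of 10 resident genes were higher and 1 lower, with a median of 0.99, and 8 of 20 lysosomal genes were higher and 0 lower, with a median of 0.81, beside 0.18. Most macrophage identity genes were higher than in lymphatic nuclei. Of 26 tested 23 were higher and 0 lower. Dock2 and Arhgap15, a regulator of small GTPases, had 0 UMIs in the lymphatic nuclei, so against a floor of 3 UMIs over that group they were at least 51.02-fold and 44.6-fold higher. The endocytic receptor gene Lrp1 was likewise at 0 there and at least 29.9-fold higher. Pf4 stood at 7.07, 0 and 13.8 CPM in lymphatic nuclei and was higher in macrophages by 5.04 ± 0.55, and Mertk at 98.95, 26.5 and 68.8 CPM and higher by 2.57 ± 0.30. Colec12 and Igf1 did not pass (0.55, adjusted p = 0.0864, and 0.52, adjusted p = 0.106), nor did the kinase gene Lyn (-0.21, adjusted p = 0.428), which was higher in macrophages without the nuclei holding other markers (0.98, adjusted p = 6.82e-05) and had 0.46 without the deep nuclei (adjusted p = 0.0752). The membrane protease gene Mmp16 was at 0 in lymphatic nuclei and had 669 UMIs in macrophages, 446 of them above the UMI limit. It was at least 34.97-fold higher with all macrophage nuclei and at least 23.2-fold higher without the deep ones. It did not pass without the nuclei holding other markers (adjusted p = 0.387).

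Several genes were lower in macrophages than in lymphatic nuclei. Pros1, the Mertk ligand, stood at 346, 379 and 440.5 CPM in lymphatic nuclei against 60.8, 89.5 and 63.7 CPM, a log2 difference of -2.41 ± 0.22. Klf4, a flow-responsive factor of endothelium, stood at 509, 115 and 275 CPM against 35.5, 52.9 and 15.2 CPM (-3.12). Fth1 stood at 622, 635 and 496 CPM against 193, 322 and 103 CPM (-1.52). The genes lowest by fold included Tnfaip8l3, a lipid transfer protein, at 163, 159 and 151 CPM against 1.58, 0 and 3.03 CPM, Apba2, a neuronal adaptor, at 84.8, 168 and 358 CPM against 1.58, 2.03 and 0 CPM, and Scn3b, a sodium channel subunit, at 35.3, 115 and 68.8 CPM against 0 in 3 of 3 pools. Elmo1, an engulfment regulator, was lower by 0.58 (adjusted p = 0.0163) and did not pass without the deep nuclei (-0.14, adjusted p = 0.631), without pool 1 (adjusted p = 0.212), without pool 3 (adjusted p = 0.172), with no block (adjusted p = 0.0741) or with 4 or more rule genes (adjusted p = 0.084). Without nuclei holding other markers its direction turned (0.12, adjusted p = 0.725).

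**Figure D4:**
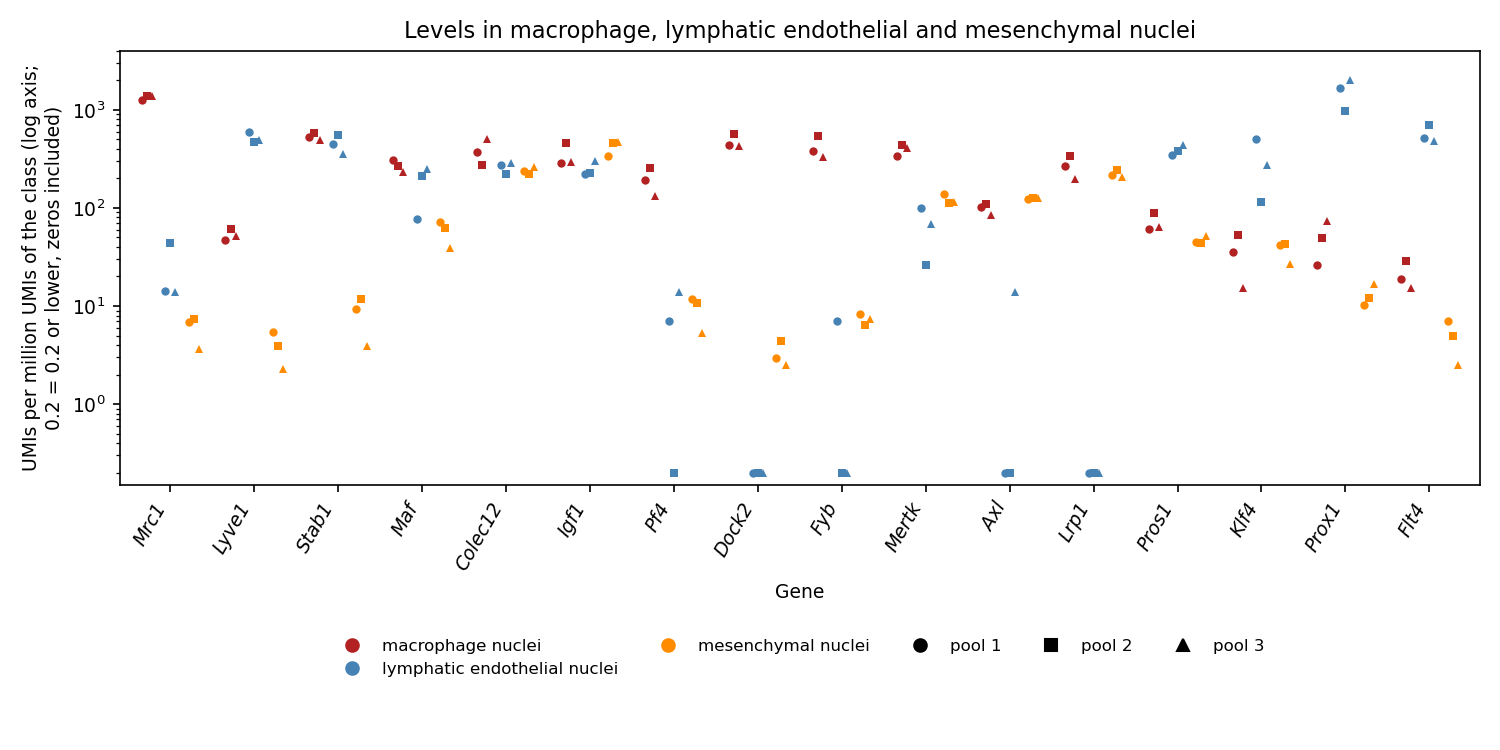
Levels of 16 genes (vertical axis, CPM on a log axis) in macrophage, lymphatic endothelial and mesenchymal nuclei, 1 symbol per pool. Lyve1, Pros1 and Klf4 are higher in lymphatic than in macrophage nuclei in 3 of 3 pools, Stab1 overlaps, and Dock2 and Lrp1 have no UMI in the lymphatic nuclei; Prox1 and Flt4 chose the lymphatic class.

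Set against 5617 mesenchymal nuclei, the largest of the comparison classes, 12.6% of the same 12730 genes were higher in macrophages and 11.7% lower, and without the deep nuclei 15.7% and 17.4%. Without macrophage nuclei holding other markers 1373 were higher and 2651 lower of 11558 tested. The gene with the highest fold was the gene model Gm31223, at 7.97. Cd84, an adhesion receptor of leukocytes, stood at 229.6, 319 and 279 CPM against 1.18, 0.493 and 2.06 CPM, a log2 difference of 7.66 ± 0.25 (adjusted p = 2.19e-16), and Lair1, an inhibitory receptor for collagen, at 65.5, 118 and 100.1 CPM against 0.460, 0.164 and 0.688 CPM. Lyve1 stood at 5.39, 3.95 and 2.29 CPM in mesenchymal nuclei and was higher in macrophages by 3.48 ± 0.31. Igf1 stood at 335, 457 and 469 CPM there and did not differ beyond the test (-0.37, adjusted p = 0.114). Genes lower in macrophages included Adamts19, a metalloprotease of valve cells, at 75.7, 77.3 and 94.1 CPM against 492, 533 and 822 CPM (-2.94 ± 0.18), and Pcdh15, a cadherin, at 145, 28.5 and 294 CPM against 719, 826 and 1046 CPM (-2.78). For Pcdh15, 252 of its 295 UMIs in macrophage nuclei lay above the UMI limit, and without the deep nuclei the difference was -4.32 (adjusted p = 3.53e-11).

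Within the macrophage nuclei, Lyve1 was detected in 33 of 155, 9 of 74 and 12 of 50 in pools 1, 2 and 3. These are shares of 21.3% (Wilson 95% interval 15.6 to 28.4), 12.2% (6.53 to 21.5) and 24.0% (14.3 to 37.4), and the 3 intervals overlap. Any of the 4 class II genes H2-Aa, H2-Ab1, H2-Eb1 and Cd74 was detected in 9, 4 and 2 nuclei. Fewer than 10 pairs in a pool were available for either division, so no test across genes was made, and the values are a description. Of the 54 Lyve1-positive nuclei 47 also held F13a1, 16 Cd163, 5 a class II gene and 1 Ccr2, while over all 279 nuclei 158 held F13a1, 50 Cd163, 15 a class II gene and 9 Ccr2. These counts are not matched for depth. The Lyve1-positive nuclei had medians of 5689, 3457 and 3618.5 UMIs in pools 1, 2 and 3, against 4431, 3773 and 2990.5 over all macrophage nuclei. Lyve1-positive nuclei and as many negative ones of nearest UMI total were summed within each pool. F13a1 had 385, 84 and 104 UMIs in the positive sums and 146, 6 and 60 in the matched ones, and Pf4 111, 48 and 23 against 57, 8 and 7. Adgre1 had 92, 17 and 19 against 89, 22 and 32, and Mertk 110, 19 and 21 against 102, 27 and 37. F13a1, Adgre1 and Cd163 are rule genes, so their counts among these nuclei draw on values that the rule used. The match failed in pool 2, where the sums held 179699 and 65780 UMIs. The 2 sides held 353995 and 348818 UMIs in pool 1 and 44909 and 44890 in pool 3.

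Cell cycle genes were tested both as levels and as shares of nuclei. Of 12 genes 2 were higher than in the other nuclei and 0 lower, with a median of 0.41, where 9.69% of all genes tested were higher. Those were Cenpe, a motor of the kinetochore, at 70.2, 79.4 and 21.2 CPM against 30.8, 32.1 and 25.5 CPM (0.92 ± 0.20, adjusted p = 2.67e-04), and Kif11, a motor of the spindle, at 71.8, 102 and 24.3 CPM against 44.9, 39.6 and 35.96 CPM (0.64 ± 0.19, adjusted p = 0.0117). Without the deep nuclei 5 of 12 were higher, and with DESeq2 0 of 12 were, although 7 were higher at an unadjusted p under 0.05 with edgeR. Without pool 1 neither gene passed, with Cenpe at 0.67 (adjusted p = 0.161) and Kif11 at 0.61 (adjusted p = 0.147). Without pool 2 Kif11 had a difference of 0.33 (adjusted p = 0.444). The adjusted p ranged over the alternatives from 1.82e-07 to 0.174 for Cenpe and from 5.96e-05 to 0.589 for Kif11. Mki67, the proliferation antigen, stood at 71.01, 122 and 30.3 CPM against 53.2, 59.2 and 38.9 CPM (0.43, adjusted p = 0.0847). In each of these 3 genes the macrophage sums of pools 1 and 2 lay above all other sums and that of pool 3 did not. Against mesenchymal nuclei 0 of 12 were called with edgeR or with DESeq2, and 0 at an unadjusted p under 0.05, with a median of 0.06. Against lymphatic nuclei 6 of 12 were higher and 0 lower, with a median of 1.37 beside 0.24 over all genes, and 6 were without the deep nuclei.

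A nucleus was counted as cycling when it held at least 2 UMIs of the 12 genes after thinning to 1000 UMIs. Cycling macrophage nuclei were 18 of 150, 14 of 72 and 2 of 48 in pools 1, 2 and 3, or 12% (Wilson 95% interval 7.73 to 18.2), 19.4% (11.95 to 30.03) and 4.17% (1.15 to 13.98). In other kept nuclei the shares were 6.83%, 6.004% and 4.999%, and in cardiomyocyte nuclei 0%, 0% and 2.86%, where 0 of 151 nuclei in pool 1 allows a share of up to 1.99% by the same limit of 3 nuclei (Wilson upper bound 2.48%). Without thinning the macrophage shares were 36.8%, 40.5% and 14%. The macrophage share was higher than that of other nuclei in 2 of 3 pools, with a mean difference of 5.92 percentage points ± 7.17 (SD, n = 3 pools). The exact sign-flip permutation over the 3 pools gave a two-sided p of 0.5, where 0.25 is the smallest this design allows. The test could not have passed a threshold of 0.05 at any size of difference, so it leaves the difference undecided.

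**Figure D5:**
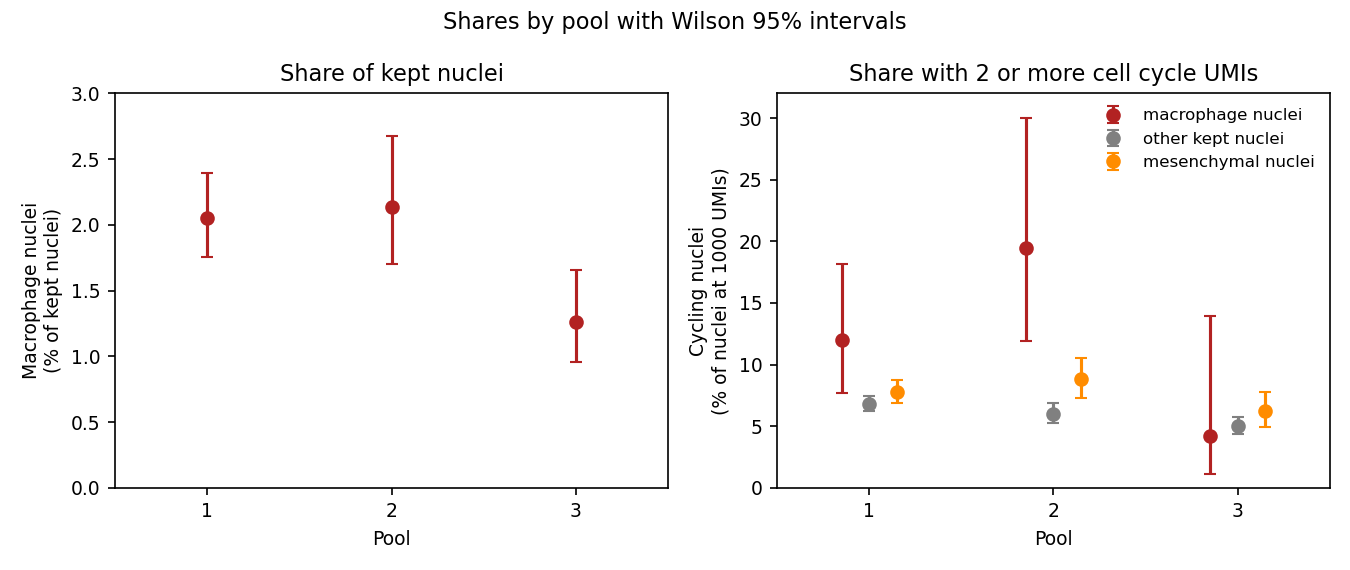
Left, macrophage nuclei as a percentage of kept nuclei in each pool; right, percentage of nuclei with 2 or more cell cycle UMIs at 1000 UMIs per nucleus in macrophage, other kept and mesenchymal nuclei. Bars are Wilson 95% intervals; the macrophage share is lowest in pool 3 in both panels, at 1.26% and 4.17%.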

How the data were processed

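Gene expression was measured by single-nucleus sequencing in 3 pools. The deposited matrices hold raw counts of UMIs per gene and nucleus, which the authors made with Cell Ranger 7.0.1 and 7.1.0 and GRCm39, per the submitters' processing notes; the annotation is not given in the sources used here. Deposited nuclei held at least 500 UMIs. The pools held 21140 nuclei and 96513814 UMIs, and 29.1% of nuclei exceeded the mitochondrial limit and were left out. No doublet caller was run.

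Counts were added up over the nuclei of each class within a pool, and genes were tested with edgeR 4.0.16 (R 4.3.3; TMM scaling, filterByExpr, quasi-likelihood test, Benjamini-Hochberg adjustment over all genes tested) with the pool as a block, since both classes come from the same pools. The comparison with other nuclei used 6 sums, and those with lymphatic and mesenchymal nuclei used 12 sums of 4 classes. Endothelial and mesenchymal classes had 3 or more of 6 markers, and the cardiomyocyte class at least 5% of UMIs from the 4 cardiomyocyte genes. The code was checked on simulated counts. Alternatives included DESeq2 1.42.0, other filters, leaving out each pool and other choices of nuclei. Genes named as highest or lowest were taken from the 15 called genes with the highest fold and the 10 with the lowest, moving the same way in 3 of 3 pools and with at least 50 CPM in the higher class, and others from the lists. The members, the gene lists and the rule were chosen with earlier results of these data known. Shares have Wilson 95% intervals. Genes at 0 in a class use a floor of 3 UMIs. A few listed genes are not reported here.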

Additional observations from a re-analysis of the deposited data

How the results depend on the processing

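Against other nuclei 3197 genes were called, 2102 with DESeq2, 2130 with no replicate block, and 756 with no limit on cardiomyocyte UMIs, an alternative chosen after seeing the data, as were the thinned fits. The pools pair the classes by construction, and without the block 2308 genes were called against lymphatic and 2151 against mesenchymal nuclei. Leaving out each pool gave 2182 to 2953 genes against other nuclei, 1437 (without pool 1) to 2172 against lymphatic nuclei and 1962 (without pool 2) to 2699 against mesenchymal nuclei. The share of macrophage nuclei was 1.66% to 2.09% with a pool left out, 1.05% with nuclei thinned before the rule and 0.527% without nuclei that hold markers of another structural type. The cycling share was 8.08% to 15.7% with a pool left out, 25.8% with 1 UMI as the minimum and 30.4% without thinning. Of 1803 values of 139 gene comparisons under alternatives, 1632 kept direction and side of the threshold, 100 no longer passed, 47 newly passed and 24 turned. In 5 of the 24 a call was involved: Axl went to -0.0113 with thinned nuclei, Cd74 to -0.088 without pool 1 (up to 2.45 without another pool), and, without nuclei holding other markers, H2-Ab1 to -8.08 and, against lymphatic nuclei, Elmo1 to 0.12 and Lyn to 0.98, which passed. The other 19, in 9 genes, passed on neither side. Without nuclei holding other markers Fth1 went to -0.66, Igf1 to -0.0974 and Tmem119 to -1.13. Fth1 was also -0.0105 with no filter, -0.063 with 4 or more rule genes, -0.168 with no mitochondrial limit and -0.0975 to 0.164 with a pool left out. Ctsl was 0.0132 with no block, 0.053 against nuclei with no rule gene and -0.15 to 0.0628 with a pool left out. Klf4 was 0.0347 against nuclei with no rule gene and 0.0143 against nuclei matched on UMI total. Mmp14 was 0.00816 against the matched nuclei, 0.0762 with no limit on cardiomyocyte UMIs and -0.433 to 0.0894 with a pool left out. Npc1 was -0.15 with thinned nuclei, Sall1 -0.825 to 0.229 with a pool left out, and Lyn 0.459 against lymphatic nuclei without the deep nuclei. The cause was not tested. The divisions by Lyve1 and by class II genes had no test, so their alternatives were not run. Depth limits genes with few UMIs, and 3 pools limit any test of shares.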

Other observations

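The EGFP transcript of the strain's allele was read at 14 UMIs in 13 macrophage nuclei and 636 UMIs in other kept nuclei, with 8, 6 and 0 UMIs in the macrophage nuclei of pools 1, 2 and 3, and Scx itself at 0 UMIs in macrophage nuclei and 41 in other kept nuclei. These are raw counts over 279 macrophage and 14702 other nuclei, so they do not show a difference in level for either gene. Some secreted proteases of macrophages were concentrated in few nuclei. Mmp12, macrophage elastase, had 57 UMIs in 8 nuclei, 37 of them in 1 nucleus of pool 2, and 0 in pool 3. Mmp13, a collagenase, had 23 UMIs in 9 nuclei. A pigment cell gene, Dct, had 45 UMIs in macrophage nuclei, of which 44 lay in 1 nucleus.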
